A study of Apis mellifera with 2 samples.

Results

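Bantam, miR-8, miR-14, miR-278 and miR-33 are 5 microRNAs that in Drosophila act on body growth, insulin signalling, and fat and lipid metabolism. Here they were followed in honey bee (Apis mellifera ligustica) larvae reared as queens or as workers. They were taken from the count table by their full honey bee names, ame-bantam, ame-miR-8, ame-miR-14, ame-miR-278 and ame-miR-33, and all 5 were found among the 53 named miRNAs and 692 entries listed. Predicted entries that carry some of the same numbers are different entries and were not counted with them. All 5 had at least 20 counts over both libraries, the minimum used for comparing castes, which 49 of the named miRNAs reached.

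The queen group was 1 small RNA library of larvae moved into queen cups before 18 h after hatching, and the worker group was 1 library of worker larvae from the same 3 colonies. Both castes came from a strain bred for royal jelly yield. Each library pooled RNA from larvae of all 3 colonies aged 73 to 90 h, 97 to 114 h or 121 to 138 h from hatching, with 40 to 60 larvae a colony. Larvae were pooled over age and colony, so tissue, day and colony cannot be told apart, and neither can fewer cells of a type from less of the miRNA per cell. Listed counts came to 2658259 in queens and to 2318675 in workers. There was 1 library per caste, so no p-value or spread between colonies can be given. Every interval below is an exact 95% interval for counting error alone.

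MicroRNAs are short RNAs that pair with messenger RNAs and lower their output. A queen larva is fed royal jelly throughout, whereas a worker larva is moved to a poorer diet, and the queen grows larger. Insulin and TOR signalling, which report nutrition to growing tissues, and the fat body, the insect counterpart of liver and fat, are part of this response in the bee. In Drosophila, bantam promotes growth and blocks cell death as a target of the Hippo pathway. There miR-8 raises insulin signalling in the fat body by repressing u-shaped, and miR-278 mutants are lean and poorly sensitive to insulin. Drosophila miR-14 limits fat storage and acts in the insulin-producing neurons of the brain. miR-33 lies within the gene of the lipid regulator SREBP in Drosophila and in mammals and acts on lipid metabolism.

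The level of each miRNA was first taken as counts per 1000000 listed counts (CPM). The 5 differed widely in both libraries, with miR-8 far above the others and miR-278 far below. miR-8 had 33321 queen counts and 33560 worker counts, or 12535 CPM (12401 to 12669) and 14474 CPM (14320 to 14628). It ranked 9 among named miRNAs in each library. It was the one member among the 10 leading named miRNAs of either library.

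Bantam had 3543 queen counts and 4375 worker counts. This was 1333 CPM (1289 to 1377) in queens, against 1887 CPM (1831 to 1944) in workers, and ranks of 20 and 23 among named miRNAs. Its rank was therefore higher in the library where its CPM was lower. A rank depends on which miRNAs stand nearby, and does not measure a change in level.

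miR-14 had 1854 queen counts and 3087 worker counts, which gave 697 CPM (666 to 729.9) and 1331 CPM (1285 to 1379). It ranked 28 among named miRNAs in queens and 24 in workers. miR-33 had 2160 queen counts and 2830 worker counts, or 813 CPM (779 to 848) and 1221 CPM (1176 to 1266). It ranked 25 in queens and 28 in workers. The order of these neighbours turned between castes: miR-33 was above miR-14 in the queen library and below it in the worker library, and the intervals of their CPM did not overlap in either library.

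miR-278 had the lowest level of the 5, with 346 queen counts and 492 worker counts. It stood at 130.2 CPM (117 to 145) in queens, against 212 CPM (194 to 232) in workers, and ranked 36 in each. Its intervals were the widest of the 5 relative to its level, because it rests on the fewest counts. Ligation of adapters and PCR are known to favour some sequences, so these levels order the miRNAs by reads and not by molecules.

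**Figure D1:**
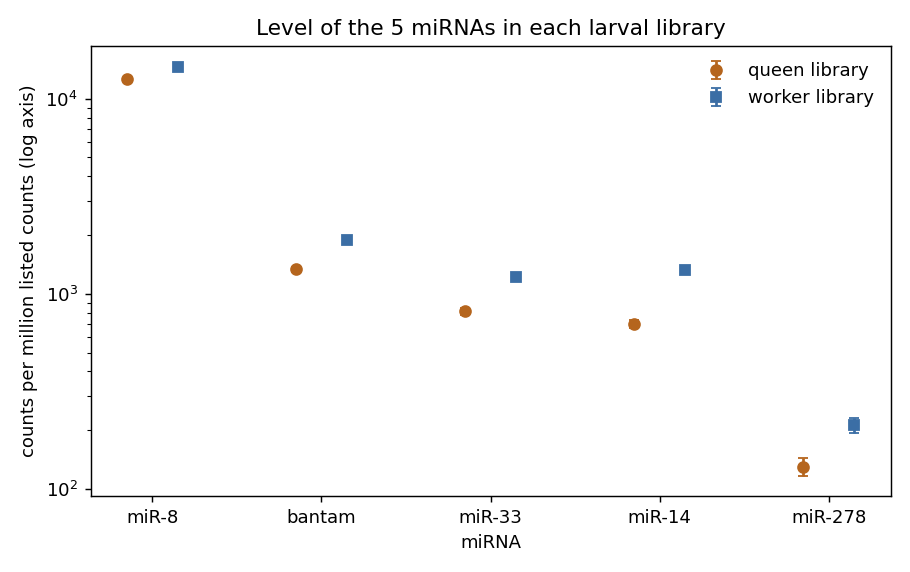
Level of each miRNA in counts per 1000000 listed counts (CPM) on a log axis, with the queen library (circles) left of the worker library (squares) and exact 95% counting intervals as bars, 1 library per caste. miR-8 lies at 12535 CPM in queens and 14474 CPM in workers, and miR-278 at 130.2 CPM in queens and 212 CPM in workers; miR-33 and miR-14 change order between the libraries.

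Together the 5 took 1.55% of the queen library (1.54 to 1.57), against 1.91% of the worker library (1.89 to 1.93). Most of this was miR-8, which made up 80.8% of the summed counts of the 5 in queens (80.4 to 81.2), against 75.7% in workers (75.3 to 76.1). The sum therefore mainly describes miR-8. Bantam supplied 8.59% of the sum in queens and 9.87% in workers. miR-14 supplied 4.50% (4.30 to 4.70) in queens and 6.96% (6.73 to 7.20) in workers. miR-33 supplied 5.24% in queens and 6.38% in workers, and miR-278 supplied 0.839% in queens and 1.11% in workers. Since miR-8 took a larger part of the sum in the queen library, the other 4 together took a smaller one there.

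Without miR-8, the remaining 4 summed to 0.297% of the queen library (0.291 to 0.304), against 0.465% of the worker library (0.456 to 0.474). The ratio of queen over worker was 0.811 (0.800 to 0.822) for all 5 and 0.639 (0.621 to 0.658) for the 4 without miR-8. The ratio of all 5 rests on the choice of total: as a share of counts outside the 5 most abundant miRNAs, the sum was 9.26% in queens and 7.96% in workers, the opposite order.

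The next comparison set each miRNA in queen larvae against worker larvae. With libraries scaled to their totals, all 5 were lower in the queen library, from miR-14, the furthest below 1, to miR-8, the nearest to it. The queen level of miR-14 was 0.524 times the worker level (0.494 to 0.555), a log2 ratio of −0.93 (−1.02 to −0.85). Its interval reached past 0.5, the ratio at which an entry counts as 2-fold. The same ratio of queen over worker was 0.613 for miR-278 (0.533 to 0.705), a log2 ratio of −0.71. miR-33 had 0.666 (0.629 to 0.704), a log2 ratio of −0.59.

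Bantam had a ratio of 0.706 (0.676 to 0.739), a log2 ratio of −0.50. miR-8 had 0.866 (0.853 to 0.879), a log2 ratio of −0.21. None of the 5 was at least 2-fold higher in either library: 0 of 5 in the queen library, where 2.04% of the 49 named miRNAs were called, and 0 of 5 in the worker library, where 24.5% were. At 1.5-fold, 3 of 5 were higher in the worker library, miR-14, miR-278 and miR-33, against 40.8% of named miRNAs, and 0 of 5 in the queen library, against 6.12%. miR-33 only just passed this cut, at 1.502-fold worker over queen (1.42 to 1.59). The interval of miR-278, 1.42 to 1.88, also reached below 1.5. A log2 ratio below 0 was shared by 75.5% of named miRNAs. All 5 lying below 0 is thus close to what the whole set did.

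The median log2 ratio of the 5 was −0.59, beside −0.36 for the 49 named miRNAs and −0.39 for the 136 entries assessed. The zero point of these ratios is set by the scaling. Every log2 ratio was 0.43 higher with TMM factors, 0.46 higher with median-of-ratios factors and 0.52 higher with totals that left out the 5 most abundant miRNAs. miR-8 then had log2 ratios of 0.22, 0.25 and 0.31 in that order, so its direction turned with each of these scalings. Bantam had −0.08, −0.04 and 0.02, so that it lay near 0 and turned with the last, and its intervals of −0.11 to 0.02 and −0.04 to 0.08 with the last 2 included 0. miR-14 stayed lower in the queen library with all 3, at −0.51 to −0.41. miR-278, at −0.28 to −0.18, and miR-33, at −0.16 to −0.07, also kept values below 0. With totals that left out the 5 most abundant miRNAs, however, their intervals of −0.39 to 0.02 and −0.15 to 0.02 included 0, so that no difference between castes was told apart there. With these 3 scalings 0 of the 5 reached 1.5-fold in the worker direction, where 24.5% of named miRNAs did under each. In the queen direction 0 of 5 reached it, where 16.3%, 16.3% and 24.5% of named miRNAs did. At 2-fold the 5 gave 0 calls in both directions under these scalings, where 8.16%, 8.16% and 10.2% of named miRNAs were higher in the queen library and 18.4% under each were higher in the worker library. With totals of named miRNAs alone, which shifted the log2 ratios by −0.02, the 5 again gave 0 calls at 2-fold, beside 2.04% of named miRNAs called higher in queens and 26.5% called higher in workers.

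**Figure D2:**
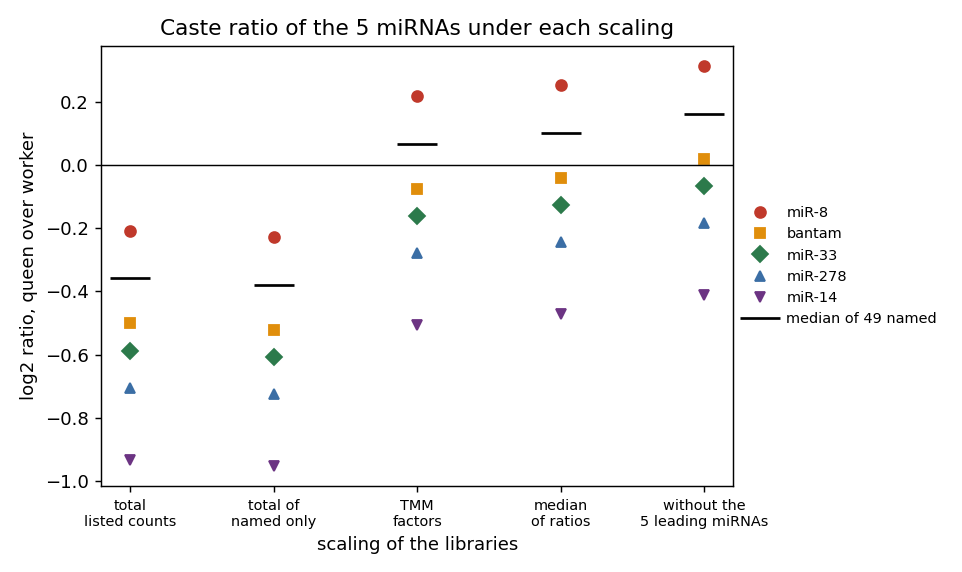
Log2 ratio of queen over worker for each miRNA (coloured symbols) under 5 scalings of the libraries, with the median of the 49 named miRNAs as a black bar. All points move by the same amount from one scaling to the next: miR-8 lies above the named median under each, the other 4 lie below it, miR-8 crosses 0 with 3 scalings and bantam with the last, at 0.02.

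A difference from the median named miRNA does not depend on the scaling. On this measure miR-8 stood 0.15 above the median on the log2 scale, and the other 4 stood below it. Bantam was at −0.14, miR-33 at −0.23, miR-278 at −0.35 and miR-14 at −0.57. miR-14 had 13 named miRNAs below it and 35 above, while miR-8 had 30 below and 18 above. The 5 therefore lay in the middle range of the 49 and held neither end of it.

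**Figure D3:**
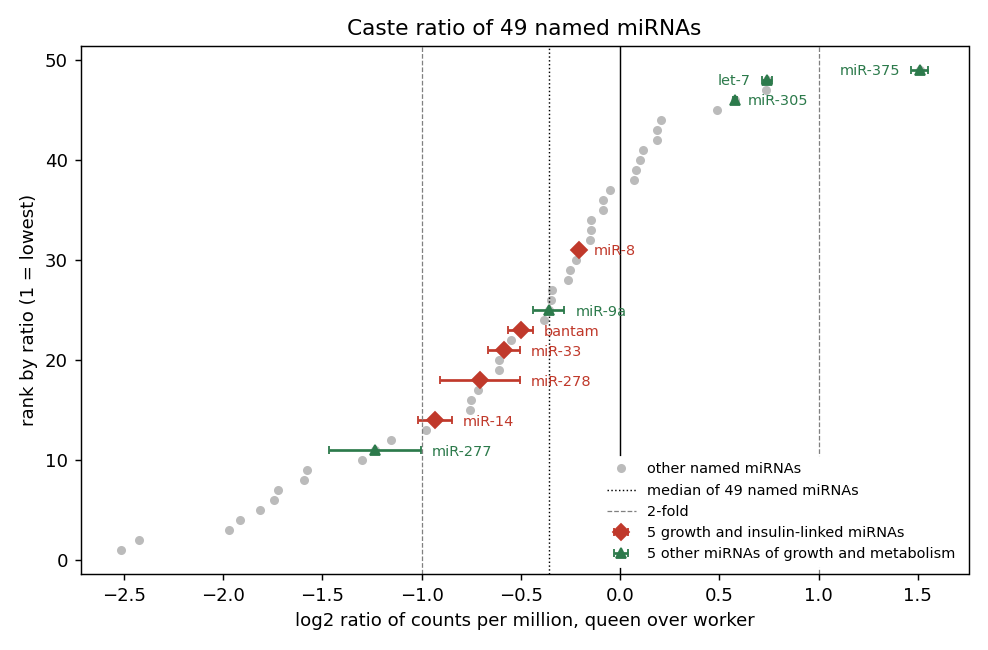
Log2 ratio of queen over worker for the 49 named miRNAs with at least 20 counts, ranked from lowest to highest, with 95% counting intervals for the labelled ones. The 5 growth and insulin-linked miRNAs (diamonds) lie between −0.93 and −0.21, inside the 2-fold lines. The 5 other miRNAs of growth and metabolism (triangles) lie between −1.23 and 1.51. Both sets were chosen with earlier results of these data known, so their spreads are not a result about such miRNAs.

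Ratios between members were then compared, since a ratio of 2 miRNAs within a library is free of the library total, and any bias of a sequence that acts alike in both libraries cancels between castes. Of the 10 pairs, 1 differed at least 1.5-fold between castes, beside 60.3% of the 1176 pairs of named miRNAs, and 6 differed at least 1.2-fold, beside 81.1%. Differences of this size were thus common among named miRNAs, whose log2 ratios ran from −2.52 to 1.51, against −0.93 to −0.21 for the 5. Each pair was written with the member of higher caste ratio first. Every factor below is therefore above 1 by that choice, and only its size and interval are informative. The pair furthest apart was miR-8 and miR-14. There were 18.0 counts of miR-8 for each count of miR-14 in queens (17.2 to 18.8), against 10.9 in workers (10.5 to 11.3). The queen ratio was 1.65 times the worker ratio (1.56 to 1.76). In Drosophila miR-8 is linked to the fat body, and miR-14 to insulin-producing neurons and fat storage. Whether such roles bear on this difference was not tested.

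miR-8 was also higher relative to each of the other 3 members in the queen library. Its ratio to miR-278 was 96.3 in queens and 68.2 in workers, a factor of 1.41 (1.23 to 1.63). Its ratio to miR-33 differed by a factor of 1.30 (1.23 to 1.38), and its ratio to bantam, 9.40 in queens and 7.67 in workers, by 1.23 (1.17 to 1.29). Thus all 4 pairs with miR-8 had intervals above 1.

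miR-14 was lower relative to each of the other 4 in the queen library. Bantam had 1.91 counts for each count of miR-14 in queens and 1.42 in workers, a factor of 1.35 (1.25 to 1.45). miR-33 had 1.17 counts for each of miR-14 in queens (1.09 to 1.24), against 0.917 in workers (0.871 to 0.965), a factor of 1.27 (1.17 to 1.38). The ratio of miR-278 to miR-14 differed by a factor of 1.17, with an interval of 1.01 to 1.36 that comes close to 1.

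The 3 remaining pairs, among bantam, miR-33 and miR-278, were not told apart at this depth. Bantam to miR-33 had a factor of 1.06 (0.987 to 1.14), miR-33 to miR-278 of 1.09 (0.933 to 1.26) and bantam to miR-278 of 1.15 (0.994 to 1.33). For bantam and miR-33 the interval leaves room for a difference of up to 1.14 times, while the low count of miR-278 leaves room for up to 1.33 times. By the ratio of queen over worker, not by level, the order of the 5 from highest to lowest was thus miR-8, then bantam, miR-33 and miR-278 without separation, then miR-14, with miR-278 and miR-14 barely apart.

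**Figure D4:**
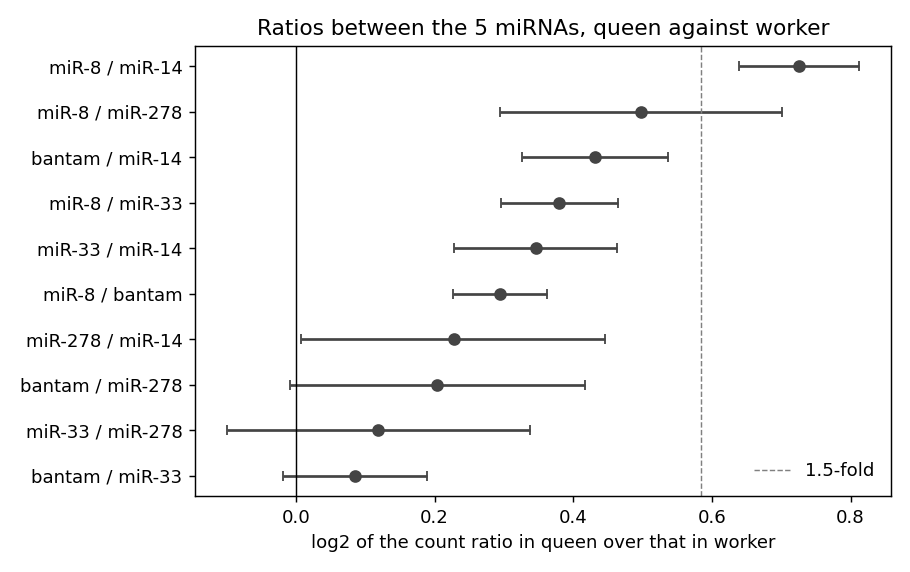
For each of the 10 pairs, the log2 of the count ratio in the queen library over that in the worker library, with exact 95% counting intervals. The member with the higher caste ratio was put first in each pair, so all points lie above 0 by that choice. miR-8 over miR-14 lies past the 1.5-fold line at 0.73, and the intervals of the 3 pairs among bantam, miR-33 and miR-278 cross 0.

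Other miRNAs tied to growth and metabolism were set beside the 5. This list held let-7, which times the passage between developmental stages, and miR-9a, which in Drosophila acts on a neuropeptide receptor of insulin-producing neurons. It also held miR-277, which in Drosophila controls the breakdown of branched-chain amino acids, miR-305, which in the Drosophila gut links insulin and Notch signalling, and miR-375, which in mammals limits insulin secretion. Of these 5, 1 was at least 2-fold higher in the queen library, miR-375, beside 2.04% of the 49 named miRNAs. In the worker library 1 was, miR-277, beside 24.5%. With TMM factors, median-of-ratios factors and totals without the 5 most abundant miRNAs, let-7 and miR-305 also passed 2-fold in the queen library. There 8.16%, 8.16% and 10.2% of named miRNAs did. miR-277 no longer passed in the worker library, where 18.4% of named miRNAs did under each. The 5 miRNAs of this list together took 10.9% of the queen library, against 7.06% of the worker library, mostly through miR-305. Their median log2 ratio was 0.58, and their values ran from −1.23 to 1.51. This list was chosen with earlier results of these data known, so its calls and spread only describe its members.

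Within-library ratios of the growth-linked 5 to this list were then compared between castes. Since let-7, miR-305 and miR-375 stood near the top of the 49 named miRNAs by caste ratio, most named miRNAs were lower relative to them in the queen library. All 5 were lower relative to let-7, by factors of 0.314 (miR-14) to 0.519 (miR-8), as were 97.9% of the other named miRNAs. All 5 were also lower relative to miR-305, by 0.351 to 0.580, as were 93.8%, and relative to miR-375, by 0.184 to 0.304, as were 100%. Bantam, for example, had 0.188 counts for each count of miR-375 in queens (0.181 to 0.195), against 0.756 in workers (0.727 to 0.787). All 5 were higher relative to miR-277 in the queen library, by factors of 1.23 to 2.04, as were 79.2% of the other named miRNAs. These directions are therefore not a trait of the 5.

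miR-9a was itself the median of the 49 named miRNAs in these 2 libraries, at a log2 ratio of −0.36. Intervals of ratios to it hold the counting error of miR-9a and of the member. They are not intervals for the position against a median of 49 miRNAs. miR-8 was higher relative to miR-9a in the queen library, by a factor of 1.11 (1.05 to 1.18). The other 4 were lower relative to it, as were 50.0% of the other named miRNAs, bantam by 0.906 (0.844 to 0.972), miR-33 by 0.854 (0.789 to 0.924), miR-278 by 0.787 (0.676 to 0.914) and miR-14 by 0.672 (0.620 to 0.728). These intervals hold for the libraries as sequenced, and how far such ratios vary between colonies was not measured.

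Markers of tissues in the larva were present in both libraries. The muscle miRNAs miR-1 and miR-133 summed to 15.0% of the queen library, against 18.0% of the worker library, nearly all of it miR-1. miR-1 had a log2 ratio of −0.26, which turned positive with 3 of the other scalings. miR-133 had only 46 queen and 141 worker counts and a log2 ratio of −1.81 (−2.33 to −1.32). The neuronal miR-124 had 550 queen counts and 2743 worker counts, a log2 ratio of −2.52. All 3 markers had log2 ratios below 0 with scaling to the total, as did the 5 growth-linked miRNAs and 75.5% of named miRNAs. The part of tissue make-up in these values was not tested. The table holds no miRNA by which the caste labels could be checked here.

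For each of the 5, the named miRNAs outside the 5 with the nearest caste ratio were found over the 2 libraries. miR-8 was nearest to miR-125, at −0.22 (−0.38 to −0.07), and miR-34, at −0.25 (−0.50 to −0.0003). miR-14 was nearest to miR-2, at −0.98 (−1.04 to −0.92), and miR-252, at −0.76 (−0.84 to −0.67). miR-278 was nearest to miR-993, at −0.72 (−0.75 to −0.69), and miR-87, at −0.75 (−0.98 to −0.53). The wide intervals of miR-125, miR-34 and miR-87 leave their nearness loosely set.

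miR-33 was nearest to miR-10 and miR-137, both at −0.61, and bantam to miR-29b, at −0.55, and miR-137. The interval of miR-10 was −0.77 to −0.45. miR-137 rests on 12 queen and 16 worker counts, with an interval of −1.82 to 0.56, so its nearness says little. miR-29b rests on 61 queen and 78 worker counts, with an interval of −1.06 to −0.05.

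All 5 matched a gene in the RefSeq annotation of assembly Amel_HAv3.1, as bantam, Mir8, Mir14, Mir278 and Mir33. Within 10 kb, Mir33 had 1 other miRNA gene, Mir9871, at 3.93 kb, and the other 4 had 0. None of the 5 overlapped another annotated gene. The nearest protein-coding gene lay at 1.47 kb for Mir278 (LOC100576760), 1.63 kb for Mir33 (LOC727436), 5.20 kb for bantam (LOC727284), 12.3 kb for Mir8 (LOC100578910) and 18.9 kb for Mir14 (LOC551425). The 5 lie apart from each other and from the other named miRNA genes by more than 10 kb.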

How the data were processed

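Per the labels' protocols, RNA was extracted with Trizol, an 18 to 30 nt gel fraction was ligated to adapters, amplified and sequenced on the Solexa platform. The deposited values were whole-number counts per miRNA, 1 column per caste. Not given in the sources used here are the aligner, the genome build, the miRNA annotation, and how arms or reads with several matches were counted. A further 242 unnamed columns held 0 filled cells.

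Counts were scaled to the library total; 1 count equals 0.376 CPM (counts per 1000000 listed counts) in queens and 0.431 CPM in workers. Shares carry Clopper-Pearson 95% intervals, caste ratios the exact conditional interval, and pair ratios that of the conditional odds ratio. PCR copies are not independent molecules, so intervals cover counting error only. A call needed 20 counts, a ratio of at least 2 (or at most 0.5) and an interval excluding 1. edgeR 4.0.16 and DESeq2 1.42.0 supplied scaling factors only, under R 4.3.3; Python 3.11.15 and scipy 1.17.1 did the rest. Calling was tested on simulated data with counting error alone, where the differences put in were larger than that of any member. This test does not cover variation between colonies. Members, lists and the naming rule were chosen with earlier results of these data known. The rule named all members, the 2 nearest named non-member miRNAs by ratio and the neighbours by mean share.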

Additional observations from a re-analysis of the deposited data

How the results depend on the processing

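The count of the 5 miRNAs at least 2-fold higher in the queen library was 0, and it was 0 under all 8 alternatives. The count in the worker library was also 0, and became 3 at a ratio of 1.5, which miR-33 only just passed, at 1.502. The median log2 ratio of −0.59 became −0.16 (TMM factors), −0.13 (median of ratios) and −0.066 (totals without the 5 most abundant miRNAs), a shift that adds the same constant to every miRNA. It was −0.61 with totals of named miRNAs. The summed share became 9.26% of queen and 7.96% of worker counts without the 5 leading miRNAs, and 1.60% of queen and 2.01% of worker counts with totals of named miRNAs, because the total was smaller. The pairs differing between castes numbered 6 at a factor of 1.2, against 1 at 1.5, and 1 with a 99% interval. Single log2 ratios moved past their counting interval in 15 of 20 cases, all by these constants. No paired analysis was possible because there is only 1 library per caste here, and for the same reason no library could be left out. Depth limits miR-278 most, at 346 queen and 492 worker counts.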

Other observations

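The named miRNAs that stood next to the 5 in mean share often had other caste ratios. Bantam lay between miR-92b, which had 1960 queen and 6444 worker counts and a log2 ratio (queen over worker) of −1.91 (−1.99 to −1.84), and miR-12, which had 3523 queen and 2840 worker counts and 0.11 (0.04 to 0.19). Bantam itself had −0.50, so these neighbours lay on either side of it. miR-8 lay between miR-276, at 0.19 (0.17 to 0.20), and let-7, at 0.74 (0.71 to 0.76). miR-278 lay between miR-92a, at −0.34 (−0.51 to −0.18), and miR-277, at −1.23 (−1.46 to −1.01). miR-14 lay between miR-33 and miR-252, which had a log2 ratio of −0.76 (−0.84 to −0.67). These differences between neighbours do not depend on the scaling of the libraries.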
